A study of Mus musculus with 8 samples.

Results

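The genes described here are 44 chromatin remodelling and histone modifying genes, measured by RNA sequencing in the embryonic mouse cortex. They were chosen by name as subunits of the BAF, CHD, ISWI, MLL and Polycomb machineries and related factors, many of them linked to neurodevelopmental disorders, and they were selected on the log2 fold change between genotypes at both stages, read against transcript length. All 44 were found in both count tables, which share 22868 genes. Because the genotype differences chose the set, its fold changes are given as a description, with no test and with nothing read from the number that passed one.

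Cortices came from 2 Mboat7+/- and 2 Mboat7-/- embryos at E11.5 and from 2 and 2 others at E12.5. Mboat7 encodes LPLAT11, the acyltransferase that places arachidonic acid in phosphatidylinositol. The mice were kept in C57BL/6N, and the deletion was germline, so every cell of the Mboat7-/- embryo carried it and the heterozygous controls carried 1 deleted allele, and each library was made from 1 embryo on poly(A)-selected RNA with strand kept. The stages were sequenced by different providers on different instruments and counted in different tables, so each stage was fitted alone and the stages are set side by side without a test between them. No source used here says whether the embryos of a genotype shared a litter. Each standard error rests on 2 embryos per genotype and on an estimate of variability that edgeR shares in part across genes.

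Chromatin remodellers use ATP to slide, eject or exchange nucleosomes, while histone modifying enzymes write or erase marks that open or close a region to transcription. In the developing cortex the BAF complex changes subunits as dividing progenitors become neurons, Polycomb repressive complex 2 lays down H3K27 methylation that holds fate genes silent, and the MLL enzymes mark enhancers and promoters with H3K4 methylation. Loss of a single copy of many of these genes, including ARID1B, CHD7, CHD8, KMT2D, CREBBP and ADNP, causes a human syndrome of the nervous system.

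Each of the 8 libraries held between 20799311 and 28189771 counts. At E11.5, Mboat7 was at 32.3 and 33.1 CPM (counts scaled to a common library size, TMM-normalized) in the Mboat7+/- cortices and at 39.0 and 34.8 CPM in the cortices labelled Mboat7-/-. At E12.5 it was at 35.5 and 36.2 CPM against 31.7 and 32.2 CPM. The transcript was thus not lower in the E11.5 cortices labelled Mboat7-/- and slightly lower in those at E12.5, and the direction of every difference below rests on the labels. Radial glial and neuron markers were abundant in every library, with summed levels from 2695 to 3997 CPM and from 1294 to 3687 CPM. Xist had 17875 counts in Mboat7+/- replicate 1 at E11.5 and at most 2 in any other cortex, so the sexes were not balanced at that stage.

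Promoter windows of RefSeq (GRCm38.p6), from 250 bases before to 50 bases after each annotated start, were given for 35 of the 44 genes, in 39 windows. Arid2, Chd1, Chd2, Chd3, Chd7, Kdm6b, Nsd1, Smarce1 and Zfp462 had none. The median window of the 44 genes held 31 CpG dinucleotides, against 7 over all 32851 windows of 27025 genes. The GC box GGGCGG, read on both strands, was in 87.2% of their windows and in 35.7% of all windows. The NRF1 core GCATGCGC was in 10.3% against 2.71%, the YY1 core AAGATGGC in 5.13% against 2.75% and the ETS core CCGGAAG in 7.69% against 8.86%. The CCAAT box CCAAT was in 30.8% against 37.4%, and the TATA box TATAAA in 2.56% against 13.6%. These matches describe the letters in each window and are not binding sites.

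The 150 bases nearest the start are shown for the 3 genes with the highest E11.5 log2 fold change that have a window (Chd9, Bptf and Crebbp) and for the gene with the lowest (Actl6b), each running 5′ to 3′ from 100 bases before the start, with matches to the motifs above in capitals. The windows are Chd9 at chr8:90828735-90828884 on the plus strand, where RefSeq lists a further start, Bptf at chr11:107132098-107132247 on the minus strand, Crebbp at chr16:4213355-4213504 on the minus strand and Actl6b at chr5:137553446-137553595 on the plus strand.
Chd9: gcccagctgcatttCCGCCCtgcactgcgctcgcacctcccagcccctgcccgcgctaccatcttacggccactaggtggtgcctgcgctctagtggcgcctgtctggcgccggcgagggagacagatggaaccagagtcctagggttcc
Bptf: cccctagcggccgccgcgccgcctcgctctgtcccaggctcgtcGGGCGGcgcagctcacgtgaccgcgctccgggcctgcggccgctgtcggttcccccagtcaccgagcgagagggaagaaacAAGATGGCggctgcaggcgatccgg
Crebbp: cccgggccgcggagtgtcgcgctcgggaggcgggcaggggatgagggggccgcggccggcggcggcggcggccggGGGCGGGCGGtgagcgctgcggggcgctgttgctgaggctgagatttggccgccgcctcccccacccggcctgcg
Actl6b: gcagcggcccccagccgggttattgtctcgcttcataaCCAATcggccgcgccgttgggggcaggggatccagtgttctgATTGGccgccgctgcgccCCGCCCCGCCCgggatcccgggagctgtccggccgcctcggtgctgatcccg
Each of the 4 holds a GC box. The YY1 core was found in the Bptf stretch, and CCAAT was found on both strands of the Actl6b stretch. The stretches of Bptf, Crebbp and Actl6b held 22, 24 and 18 CpG dinucleotides, and that of Chd9 held 11.

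The 44 genes together took 9474 and 9439 CPM in the E11.5 Mboat7+/- cortices and 10058 and 10305 CPM in those labelled Mboat7-/-. At E12.5 their summed level was 7875 and 7510 CPM in Mboat7+/- and 7600 and 7814 CPM in the cortices labelled Mboat7-/-. The genotypes were thus apart at E11.5 and interleaved at E12.5. Per kilobase of transcript, the mean level over the 4 E11.5 cortices ran from 0.893 CPM per kb for Chd5, a remodeller known from neurons, to 158 CPM per kb for Smarce1, the HMG-domain subunit of BAF, with a median of 23.5. The highest after Smarce1 were Smarcb1, a core BAF subunit, at 129, Chd4, the motor of the NuRD complex, at 128, Smarca4, the main BAF ATPase, at 119, and Ezh2, the H3K27 methyltransferase, at 112 CPM per kb. At E12.5 the same scale ran from 1.07 for Dpf3 to 122 for Smarcb1, with Smarce1 at 119, Ezh2 at 99.1, Chd4 at 93.0 and Smarca4 at 89.7 CPM per kb.

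At E11.5 most of the 44 genes read higher in the cortices labelled Mboat7-/-. Their median log2 fold change (log2FC, fitted by edgeR, with SE for its standard error) was 0.14, against -0.01 over all 14935 genes tested, and all 44 passed the filter on low counts. Of the 44, 32 were higher and 12 lower, in a range from -0.72 (Actl6b) to 0.42 (Zfp462). In 26 genes both cortices labelled Mboat7-/- lay above both Mboat7+/- cortices, and in 7 both lay below. Over all genes tested those shares were 23.1% and 23.3%. The roles with a single direction included the CHD remodellers and the H3K4 methyltransferases, while the BAF subunits were split in both directions.

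**Figure D1:**
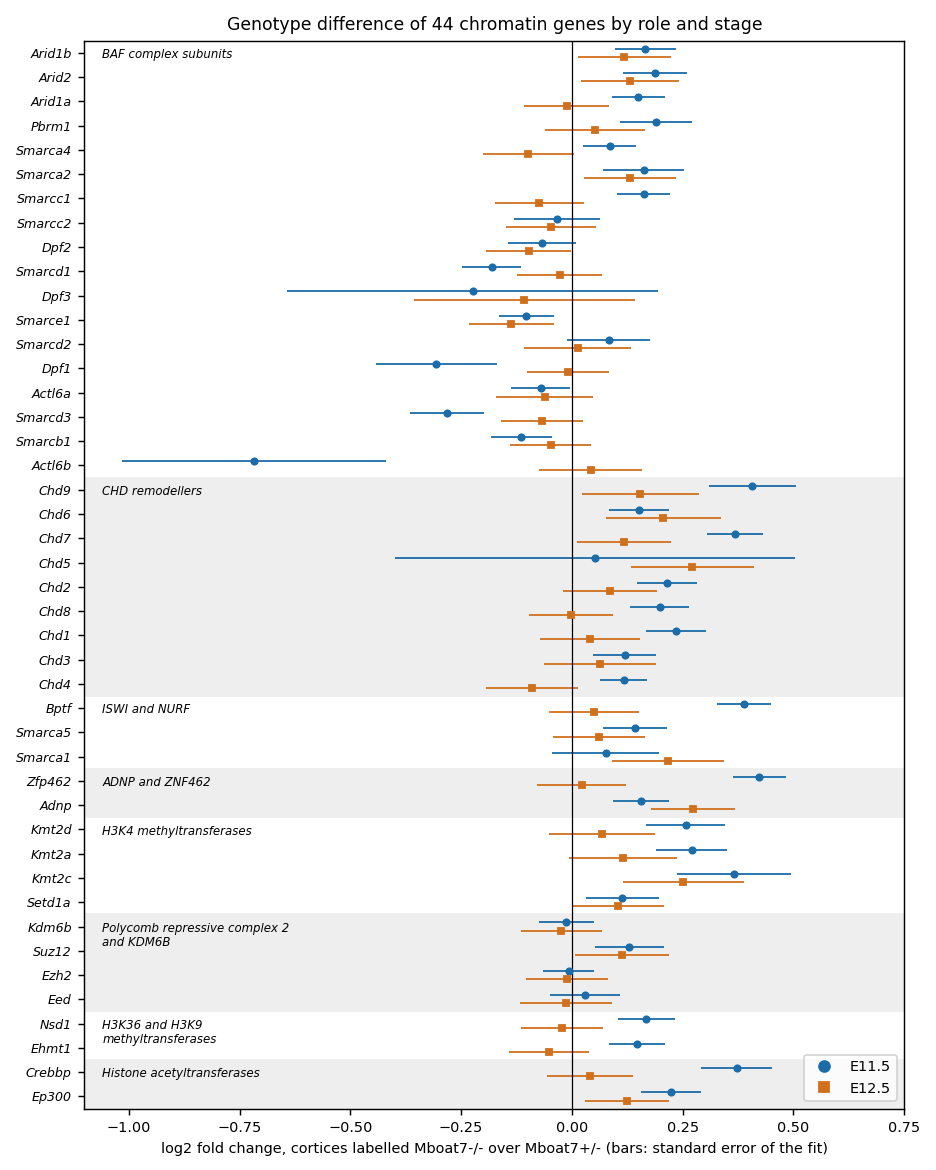
Log2 fold change of each of the 44 genes between cortices labelled Mboat7-/- and Mboat7+/- cortices (x axis), by role and, within a role, from the longest transcript down. Circles are E11.5 and squares E12.5, with the SE of the fit as bars. At E11.5 all 9 CHD genes lie right of 0, while the BAF subunits run from Actl6b at -0.72 to Pbrm1 at 0.19.

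No member was called at E11.5 by edgeR's quasi-likelihood test (FDR under 0.05 over all 14935 genes, of which 0% were called), and 23 of the 44 had an unadjusted p under 0.05, as did 14.1% of all genes. DESeq2 called 4 of them, Chd7, Bptf, Zfp462 and Crebbp, and 1.59% of the 11171 genes to which it gave an adjusted p, among which were 43 of the 44. Replicate numbers double as batch numbers in the labels. With them as a block, edgeR called 9 of the 44, against 3.38% of all genes: Chd7, Chd9, Bptf, Zfp462, Kmt2c, Kmt2d and Crebbp as higher, and Smarcd3 and Actl6b as lower. Without the second cortex labelled Mboat7-/-, 10 members and 7.72% of all genes were called, and without the first, 2 members and 0.334%. With the block and with the trend on transcript length described below removed, 0 of the 44 were called. Since this contrast chose the genes, nothing is read from these counts.

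Zfp462, a zinc finger protein that partners with heterochromatin methyltransferases, had the highest log2 fold change of the set at E11.5. It was at 264 and 251 CPM in the Mboat7+/- cortices and at 342 and 348 CPM in those labelled Mboat7-/- (log2FC 0.42, SE 0.06). Neither pair of cortices came near the other. At E12.5 the values were 276 and 249 CPM against 254 and 278 CPM, and the genotypes were interleaved. Adnp, which recruits CHD4 and HP1 to chromatin, was at 245 and 264 CPM against 286 and 281 CPM at E11.5 (log2FC 0.16, SE 0.06). At E12.5 Adnp had the highest value of the set, at 156 and 142 CPM against 175 and 186 CPM (log2FC 0.27, SE 0.10). It was higher without overlap at both stages, as were Ep300 and Smarca2. How many of all genes tested were so was not counted. With the trend on transcript length described below removed, Adnp, Ep300 and Smarca2 all overlapped at E11.5, and only Adnp did not at E12.5.

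All 9 CHD remodellers, which slide nucleosomes and carry paired chromodomains, had a positive log2 fold change at E11.5, with a median of 0.20, and 7 of the 9 did not overlap. Chd9 was at 34.4 and 36.1 CPM in Mboat7+/- and at 45.5 and 48.1 CPM in the cortices labelled Mboat7-/- (log2FC 0.41, SE 0.10). Chd7, the CHARGE syndrome gene, was at 179 and 174 CPM against 232 and 224 CPM (log2FC 0.37, SE 0.06). For both genes the 2 cortices of a genotype were close and the genotypes were apart. Chd1, Chd2, Chd4, Chd6 and Chd8 lay between 0.12 and 0.23 without overlap. Chd3 overlapped at 0.12, and so did Chd5, the least abundant of the 44 per kilobase, at 0.05 (SE 0.45). Chd5 was at 7.02 and 9.29 CPM against 4.10 and 13.5 CPM, so the cortices labelled Mboat7-/- held both its lowest and its highest value.

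At E12.5 the CHD median was 0.09, with 7 of 9 higher and none of the 9 higher without overlap. Chd9 was at 60.7 and 45.0 CPM against 56.7 and 61.0 CPM, and Chd7 at 136 and 115 CPM against 129 and 143 CPM, and in each the second Mboat7+/- cortex was the lowest of the 4. Chd4 had opposite signs at the stages: at E11.5 it was at 843 and 804 CPM against 889 and 897 CPM, and at E12.5 at 631 and 654 CPM against 599 and 608 CPM. Its log2 fold changes were 0.12 (SE 0.05) and -0.09 (SE 0.10), without overlap at either stage. With the trend on transcript length described below removed, Chd4 was at -0.04 and -0.18, lower without overlap at both stages.

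Of the ISWI genes, Bptf, the large subunit that anchors the NURF remodeller to methylated H3K4, was the clearest at E11.5. It was at 179 and 178 CPM in Mboat7+/- and at 235 and 231 CPM in the cortices labelled Mboat7-/- (log2FC 0.39, SE 0.06), and the gap between genotypes was far wider than that within either. At E12.5 it was at 152 and 130 CPM against 143 and 149 CPM, with overlap and a log2 fold change of 0.05 (SE 0.10). Smarca5, the ISWI ATPase of progenitors, had log2 fold changes of 0.14 at E11.5, without overlap, and 0.06 at E12.5, with overlap. Smarca1, its paralogue and the only X-linked gene of the 44, overlapped at E11.5 with a log2 fold change of 0.08. At E12.5 Smarca1 was at 24.3 and 20.1 CPM against 25.7 and 25.9 CPM (log2FC 0.22, SE 0.13), with the genotypes apart. Its value was 0.36 without Mboat7+/- replicate 1, 0.088 without Mboat7+/- replicate 2 and 0.081 with trends on length and GC content removed.

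The 4 H3K4 methyltransferases were all higher at E11.5, with a median log2 fold change of 0.26. Kmt2c, which marks enhancers, was at 48.3 and 63.1 CPM in Mboat7+/- and at 67.7 and 76.8 CPM in the cortices labelled Mboat7-/- (log2FC 0.37, SE 0.13). Its genotypes did not overlap, but the Mboat7+/- cortices differed from each other by more than the nearest cortices of the 2 genotypes, and its value was 0.20 without Mboat7+/- replicate 1 and 0.59 without Mboat7+/- replicate 2. Kmt2a, the founding MLL gene, was at 153 and 145 CPM against 168 and 191 CPM (log2FC 0.27, SE 0.08). Kmt2d, the Kabuki syndrome gene, had a value of 0.26 without overlap, and Setd1a one of 0.11 with overlap. At E12.5 all 4 were again positive, between 0.07 and 0.25, and all 4 overlapped.

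The histone acetyltransferases CREBBP and EP300 are close paralogues that acetylate H3K27 at enhancers. At E11.5 Crebbp was at 71.6 and 70.2 CPM against 88.2 and 95.4 CPM (log2FC 0.37, SE 0.08). Ep300 was at 117 and 120 CPM against 136 and 141 CPM (log2FC 0.22, SE 0.07). Both genotypes were tight and apart in each gene. At E12.5 Ep300 did not overlap, at 109 and 97.0 CPM against 111 and 114 CPM (log2FC 0.12, SE 0.09), and Crebbp overlapped at 0.04. The E12.5 value of Ep300 was 0.21 without Mboat7+/- replicate 1, 0.044 without Mboat7+/- replicate 2 and, with overlap, 0.022 with the length trend removed.

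Of the 4 genes around Polycomb repressive complex 2, 3 had values near 0 at both stages. Ezh2 was at 309 and 319 CPM in Mboat7+/- and at 315 and 310 CPM in the cortices labelled Mboat7-/- at E11.5 (log2FC -0.01, SE 0.06), and at E12.5 its value was again -0.01 (SE 0.09). Eed, which reads H3K27me3, was at 0.03 and -0.01, and Kdm6b, the demethylase that removes this mark, at -0.01 and -0.02 on the log2 scale at E11.5 and E12.5. Suz12, the structural subunit, was higher without overlap at E11.5, with a log2 fold change of 0.13, and overlapped at E12.5 at 0.11. Nsd1, which methylates H3K36, and Ehmt1, which methylates H3K9, had log2 fold changes of 0.17 and 0.15 at E11.5, both without overlap, and of -0.02 and -0.05 at E12.5, both with overlap.

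The 18 BAF subunits had a median log2 fold change of -0.05 at E11.5, with 8 higher and 10 lower. Of these, 7 were higher without overlap: the ATPases Smarca4 and Smarca2, the scaffold Smarcc1, the DNA-binding subunits Arid1a, Arid1b and Arid2, and Pbrm1, the bromodomain subunit of PBAF, between 0.09 and 0.19. The 7 lower without overlap were Smarcb1, Smarcd1, Smarcd3, Smarce1, Actl6a, Actl6b and Dpf1, between -0.72 and -0.07. Smarcc2, Smarcd2, Dpf2 and Dpf3 overlapped. Over all genes tested, 23.1% were higher and 23.3% lower without overlap. The higher subunits had transcripts of 5773 bases or more and the lower ones of 3307 bases or less.

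Progenitor BAF contains ACTL6A, DPF2 or PHF10 and SS18, and neuronal BAF contains ACTL6B, DPF1 or DPF3 and SS18L1 in their place, while SMARCD1 and SMARCD3 are alternative members of the BAF60 family. Actl6b had the lowest value of the 44 genes at E11.5, at 23.0 and 29.3 CPM in Mboat7+/- and at 10.04 and 22.5 CPM in the cortices labelled Mboat7-/- (log2FC -0.72, SE 0.30). Most of that came from the first cortex labelled Mboat7-/-, without which it was -0.22, and without the second it was -1.38. Dpf1 was at 78.7 and 81.5 CPM against 54.5 and 75.6 CPM (log2FC -0.31, SE 0.14), or -0.08 without the same first cortex. Smarcd3 was at 124 and 135 CPM against 101 and 113 CPM (log2FC -0.28, SE 0.08), and -0.19 without it. Dpf3 was among the least abundant, at 2.86 and 4.34 CPM against 1.98 and 4.45 CPM, and Ss18l1 overlapped at 34.9 and 39.7 CPM against 30.4 and 43.3 CPM.

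The first cortex labelled Mboat7-/- at E11.5 was the lowest of the 4 for all 5 of these genes, and it also had the lowest summed level of 10 neuron markers, 1294 CPM against 2046 CPM in the second and 1939 and 2222 CPM in the Mboat7+/- cortices. Of the 10 neuron markers 0 were higher in the cortices labelled Mboat7-/- on the fitted scale and 2 were lower without overlap, with a median log2 fold change of -0.36. The part of the neuron markers in the values of these subunits was not tested, and in bulk tissue fewer neurons and less of each RNA per neuron cannot be told apart. Blood markers were lower as well, at a summed 6755 and 5091 CPM against 3530 and 3749 CPM, with 4 of 5 tested without overlap and Hba-a1 at 0 counts in all 4 cortices. Intermediate progenitor markers were lower too, at a summed 498 and 518 CPM against 371 and 483 CPM, with a median of -0.27, and 0 of 5 were higher and 4 lower without overlap. Radial glial markers, at a summed 3903 and 3957 CPM against 3414 and 3997 CPM, had a median of -0.12, with 2 of 9 higher and 4 lower without overlap. Mesenchyme markers were higher, at 1487 and 1450 CPM against 1640 and 1863 CPM, with 5 of 7 without overlap. Over all genes tested, 23.1% were higher and 23.3% lower without overlap. The marker values are not adjusted for transcript length, with which log2 fold changes ran over all genes at E11.5, as described below. The part of these marker groups in the results was not tested either.

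The progenitor subunits and Smarcd1 were also read at E11.5. Actl6a was at 153 and 152 CPM against 148 and 142 CPM, and Dpf2 at 195 and 175 CPM against 169 and 183 CPM. Smarcd1 was at 307 and 307 CPM against 258 and 283 CPM (log2FC -0.18, SE 0.07), with the genotypes apart. Phf10 was at 69.4 and 68.7 CPM against 78.7 and 73.7 CPM, and Ss18 at 133 and 130 CPM against 140 and 129 CPM. Of these 5, only Phf10 was higher without overlap, and Actl6a and Smarcd1 were lower without overlap. Per kilobase of transcript, Actl6b made up 15.9% and 19.6% of Actl6a and Actl6b in Mboat7+/- and 7.88% and 16.7% in the cortices labelled Mboat7-/-. The share of Dpf1 and Dpf3 among the 3 Dpf genes was 37.3% and 41.0% against 32.2% and 38.2%, which overlapped. The share of Smarca2 in Smarca2 and Smarca4, the 2 ATPases, was 6.999% and 7.52% against 7.97% and 7.34%.

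At E12.5 the exchanged subunits were close between genotypes. Actl6b was at 45.1 and 43.3 CPM against 40.9 and 50.2 CPM, with a share of 29.0% and 26.6% against 25.2% and 33.5%. Dpf1 was at 79.0 and 74.9 CPM against 74.4 and 78.7 CPM, Dpf3 at 3.796 and 3.196 CPM against 3.13 and 3.36 CPM, and Smarcd3 at 91.4 and 98.6 CPM against 87.9 and 93.4 CPM. In each of these 4 the genotypes overlapped. Dpf2 was at 167 and 168 CPM against 166 and 147 CPM and was lower without overlap, by a margin of about 1 CPM for the first cortex labelled Mboat7-/-. Ss18l1 was higher without overlap, at 63.3 and 59.0 CPM against 63.9 and 67.5 CPM. Actl6a, Smarcd1, Phf10 and Ss18 overlapped, with log2 fold changes between -0.06 and -0.03. Summed neuron markers were at 3687 and 3449 CPM against 3615 and 3667 CPM.

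**Figure D2:**
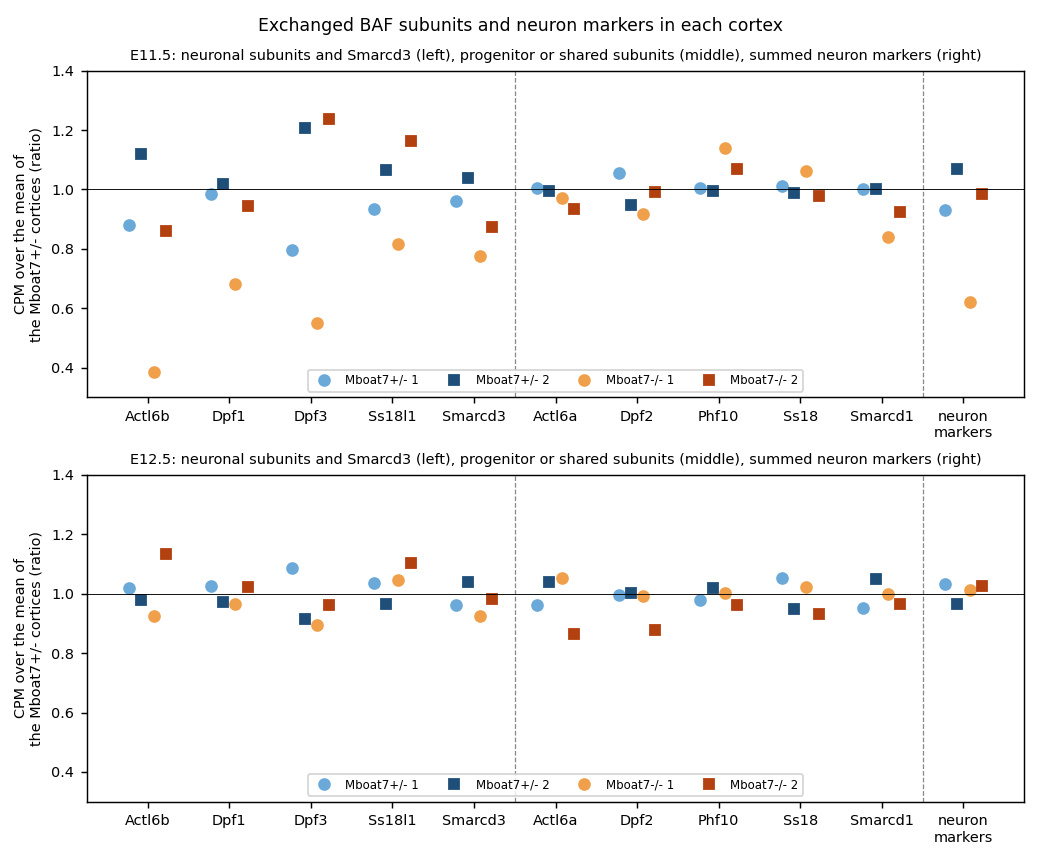
Level of the exchanged BAF subunits and of the summed neuron markers in each cortex, as a ratio to the mean of the 2 Mboat7+/- cortices of that stage (y axis). Each point is 1 cortex, with E11.5 above and E12.5 below. At E11.5 the first cortex labelled Mboat7-/- is the lowest point for Actl6b, Dpf1, Dpf3, Ss18l1, Smarcd3 and the neuron markers. At E12.5 the cortex of the same label and number, from a different embryo, is the lowest for Actl6b, Dpf1, Dpf3 and Smarcd3, by smaller margins. It is not the lowest for Ss18l1 or the neuron markers.

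Among the other BAF subunits at E12.5, Smarce1 was lower without overlap, as it was at E11.5. It was at 352 and 373 CPM against 335 and 326 CPM (log2FC -0.14, SE 0.10), after 468 and 490 CPM against 430 and 462 CPM and -0.10 (SE 0.06) at E11.5. With the length trend removed, Smarce1 overlapped at E11.5 and was lower without overlap at E12.5. Smarca4 was higher at E11.5 and lower at E12.5: 720 and 749 CPM against 749 and 810 CPM at E11.5 gave 0.09 (SE 0.06), and 589 and 594 CPM against 552 and 554 CPM at E12.5 gave -0.10 (SE 0.10). The E11.5 gap of Smarca4 was under 1 CPM between its nearest cortices, and with the length trend removed its value was -0.06, with overlap, at E11.5 and -0.18 at E12.5. Smarca2 was at 63.2 and 63.1 CPM against 63.5 and 74.8 CPM at E12.5 (log2FC 0.13, SE 0.10), and without the second cortex labelled Mboat7-/- it was 0.01.

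Over all 44 genes at E12.5, the median log2 fold change was 0.04, against 0.0049 over all 16326 genes tested, and 25 were higher. Only 4 were higher without overlap (Adnp, Smarca1, Smarca2 and Ep300) and 4 lower (Smarce1, Smarca4, Dpf2 and Chd4). Over all genes tested the shares were 16.9% and 15.2%. No member was called by edgeR's quasi-likelihood test (0.0184% of all genes were called), 1 had an unadjusted p under 0.05 (4.23% of all genes did), and DESeq2 called 0 (0.0613% of all genes). The median was -0.02 without Mboat7+/- replicate 2, when 13 were higher, and 0.09 without Mboat7+/- replicate 1, when 31 were. Of the 26 genes higher without overlap at E11.5, 19 had a log2 fold change above 0 at E12.5. Over all genes tested at E12.5, 61.6% of those with transcripts from 4 to 8 kb were above 0. For transcripts of 8 kb or more the share was 74.3%. The absolute value was larger at E11.5 in 34 of the 44, and this count was not made over all genes.

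**Figure D3:**
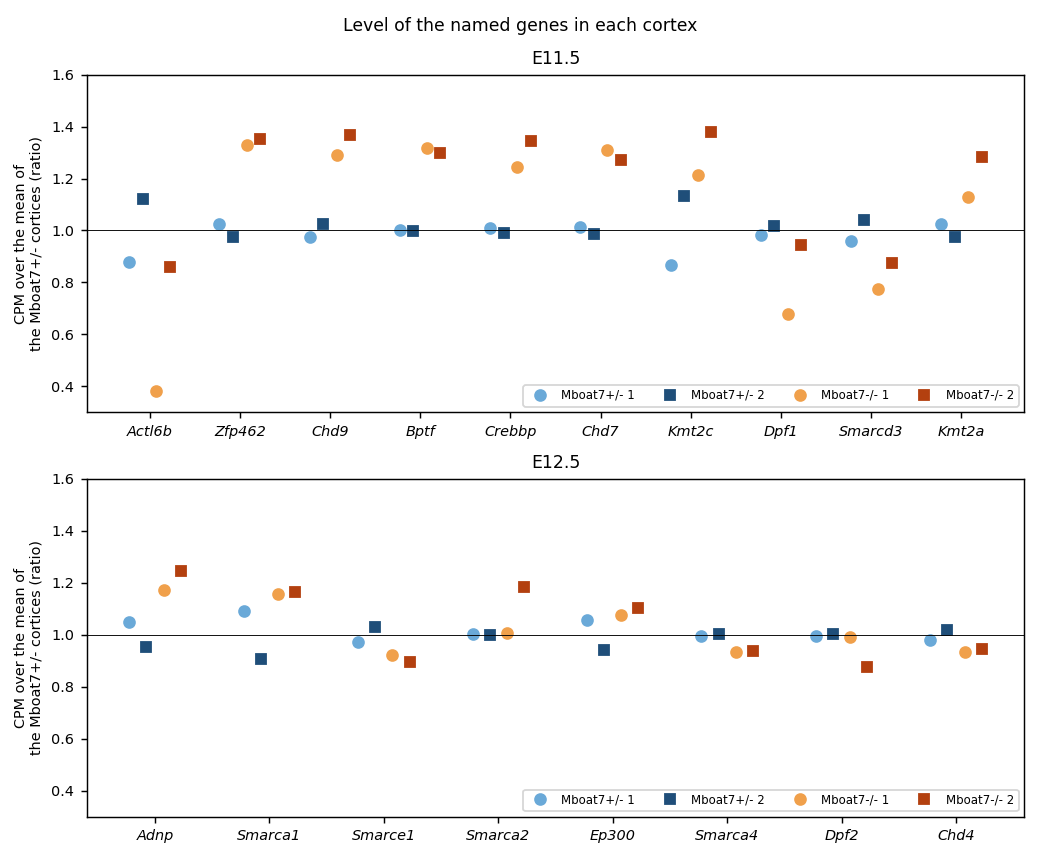
CPM of the genes with the largest absolute log2 fold change among those whose genotypes do not overlap, as a ratio to the mean of the 2 Mboat7+/- cortices (y axis), with 10 genes at E11.5 above and all 8 such genes at E12.5 below. Each point is 1 cortex. Zfp462, Chd9, Bptf, Crebbp and Chd7 show 2 tight pairs at E11.5, while Actl6b and Dpf1 are spread by the first cortex labelled Mboat7-/-.

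The log2 fold changes of the members ran with the length of their transcripts. The longest coding transcript ran from 1592 bases (Actl6b) to 19823 bases (Kmt2d), with a median of 6570.5 bases. Across the 44 genes at E11.5, Spearman's rho between log2 fold change and length was 0.86, and Pearson's r with log2 length was 0.82. These are correlations across genes, which share the 4 libraries and are not independent, and they carry no test. Over 14823 genes tested with a known length, rho was 0.39. The 12 members under 4 kb had a median log2 fold change of -0.11, and 2 were higher, none without overlap. The 15 members from 4 to 8 kb had a median of 0.13, and 13 were higher, 10 without overlap. The 17 members of 8 kb or more had a median of 0.22, and all 17 were higher, 16 without overlap. Over all genes tested in these classes, from short to long, the medians were -0.06, 0.09 and 0.18. The shares higher were 36.6%, 70.4% and 81.2%. Shares without overlap were not counted over all genes in these classes. In narrower ranges of length, the shares of all genes higher without overlap were between 6.06% and 20.4% up to 3661 bases. They were 34.0% from 4306 to 5141 bases, 43.7% from 5142 to 6717 bases and 55.8% at 6719 bases or more.

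The same gradient ran through all genes tested at E11.5. When all genes with a length were cut into 10 equal classes, the median log2 fold change was higher in each class than in the one before, from -0.15 in the shortest to 0.17 in the longest (6719 bases or more). In the longest class, 55.8% of all genes were higher without overlap and 4.18% were lower. Of the 44 members, 20 were in that class, with a median of 0.22, and 8 in the next, with a median of 0.13 against 0.11 for all its genes. The gradient was in the libraries themselves. Each doubling of length changed the log2 CPM, relative to the mean of the 4 cortices, by -0.037 and -0.046 in the Mboat7+/- cortices and by 0.038 and 0.044 in the cortices labelled Mboat7-/-. The genotypes were therefore separated by this trend at E11.5, and a length trend of technical origin and one of genotype cannot be told apart.

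**Figure D4:**
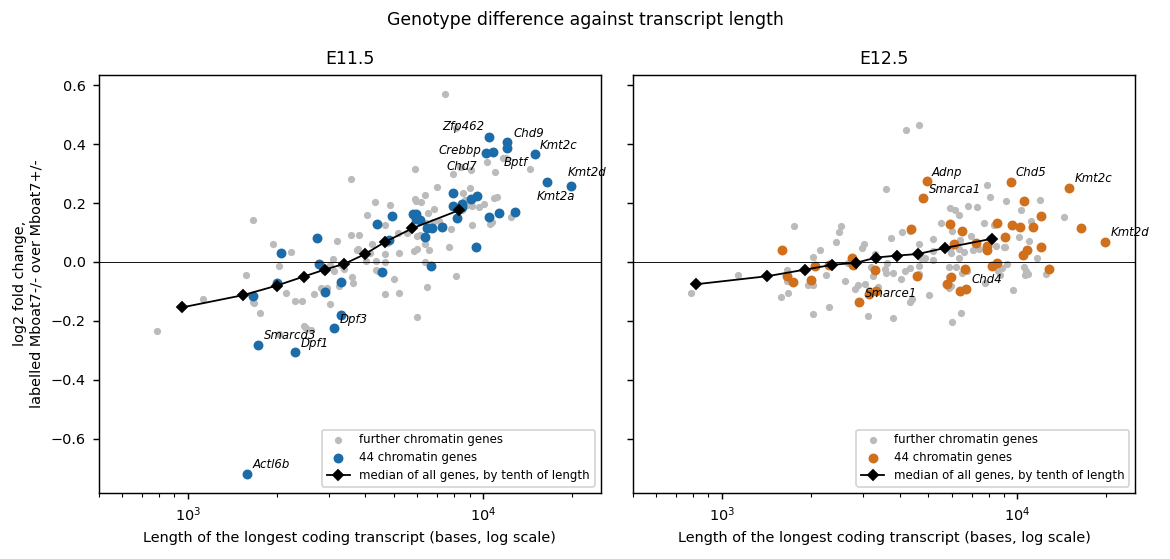
Log2 fold change (y axis) against the length of the longest coding transcript in bases (x axis, log scale) at E11.5 and E12.5. Coloured points are the 44 genes, grey points further chromatin genes, and black diamonds the median of all genes in each of 10 classes of length, which spans -0.15 to 0.17 on the left and -0.08 to 0.08 on the right. Most coloured points follow the black line, and Zfp462, Chd9, Bptf, Crebbp and Chd7 lie above it at E11.5.

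When the trend on length was removed from each E11.5 library, the median log2 fold change of the 44 genes went from 0.14 to 0.00029 (all genes -0.02), and 22 of 44 were higher instead of 32. The number higher without overlap went from 26 to 8: Smarcd2, Chd1, Chd7, Chd9, Bptf, Zfp462, Eed and Crebbp. The number lower without overlap was 6: Smarcd1, Smarcd3, Dpf1, Chd4, Chd6 and Kdm6b. Over all genes tested those shares were then 17% and 22.1%. The genes with the largest values kept part of them. Zfp462 was at 0.22, Chd9 at 0.20, Bptf at 0.18, and Chd7 and Crebbp at 0.17, while Kmt2c stood at 0.16 with overlap. Of the short BAF subunits, Dpf1 was at -0.27, Smarcd3 at -0.21 and Smarcd1 at -0.19, each still without overlap. Actl6b, at -0.63, then overlapped. Spearman's rho between length and the remaining log2 fold change was still 0.47 across the 44 genes. Over 44 genes, rho with GC content of the transcript was -0.46 before the trend was removed and -0.52 after. With a trend on length and GC content removed together, the median was -0.0040, and 10 were higher and 3 lower without overlap.

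Among the roles, the CHD median at E11.5 went from 0.20 to 0.01 when the length trend was removed, with 5 of 9 higher instead of 9. The H3K4 methyltransferase median went from 0.26 to 0.08, and that of the acetyltransferases from 0.30 to 0.10. The BAF median was -0.05 before and after.

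At E12.5 the gradient was shallower and was not separated by genotype. The median log2 fold change of all genes ran from -0.08 in the shortest class to 0.08 in the longest, where 22 of the 44 members lie, with a median of 0.07. The change in log2 CPM per doubling of length was 0.023 and -0.061 for Mboat7+/- and -0.00027 and 0.039 for the label Mboat7-/-, so the 2 Mboat7+/- cortices had slopes of opposite sign. Across the 44 genes rho between log2 fold change and length was 0.52, and 0.09 with the trend removed. With the trend removed the median of the members was -0.03, 14 were higher, 3 were higher without overlap (Chd5, Smarca1 and Adnp) and 11 lower (Smarca4, Smarcc2, Smarce1, Arid1a, Dpf3, Chd4, Bptf, Zfp462, Kmt2d, Ehmt1 and Crebbp). Over all genes tested those shares were then 14.4% and 18.1%. Adnp kept 0.21 and Smarca1 0.16, and Smarca4 and Chd4 were each at -0.18.

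**Figure D5:**
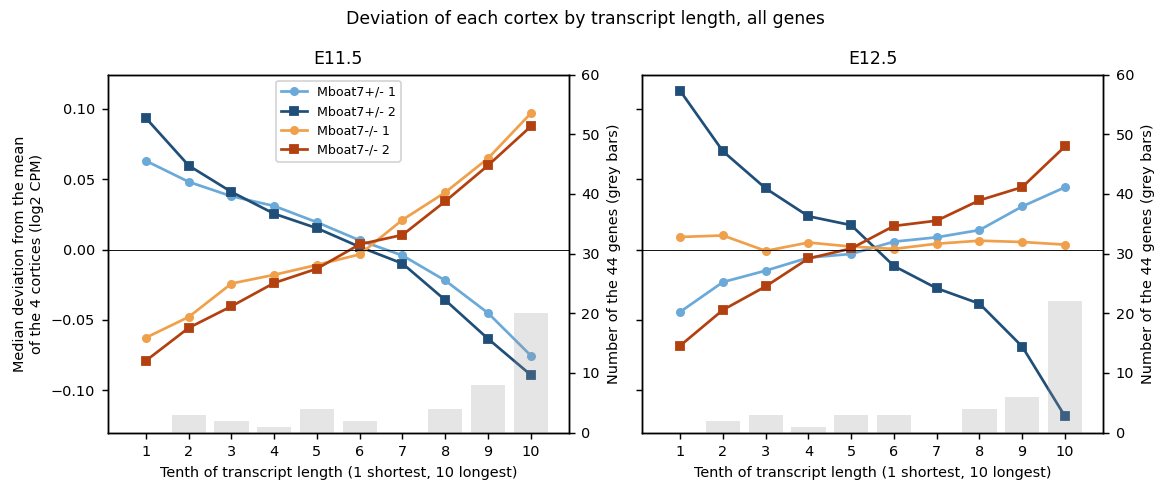
Median deviation of each cortex from the mean of the 4 cortices of its stage, in log2 CPM (left axis), over all genes in each of 10 classes of transcript length (x axis, 1 shortest), with the number of the 44 genes in each class as grey bars (right axis). At E11.5 the cortices of the 2 genotypes run in opposite directions, and at E12.5 Mboat7+/- replicate 2 runs down with length, Mboat7+/- replicate 1 and the second cortex labelled Mboat7-/- run up, and the first is near flat. The grey bars show 20 and 22 of the 44 genes in the longest class.

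A wider list of 108 chromatin genes, written from known function, was looked at beside the 44. At E11.5, 107 of them were tested, with a median log2 fold change of 0.06, 70 higher, 47 higher without overlap and 16 lower without overlap, and 0 were called. Over all genes tested, 23.1% were higher and 23.3% lower without overlap. With the length trend removed the median was -0.02. By role, all 11 other histone methyltransferases and all 6 partner subunits of ISWI were higher, while 5 of 11 MLL and SET1 complex subunits (median -0.0089), 3 of 11 NuRD subunits, 5 of 12 other BAF subunits and 2 of 6 subunits of the INO80, SRCAP and TIP60 complexes were. With the length trend removed, 4 of the 11 other histone methyltransferases were higher. Those with the largest values without overlap were Gatad2b, a NuRD subunit, at 23.5 and 22.6 CPM against 33.1 and 35.3 CPM (log2 fold change 0.57, SE 0.11), and Hdac4, a class IIa deacetylase, at 9.42 and 9.93 CPM against 12.3 and 14.4 CPM (0.45, SE 0.18). Next were Ash1l, an H3K36 methyltransferase, at 0.35, Asxl2, a Polycomb-associated gene, at 0.35, and Atrx, a remodeller that deposits H3.3, at 0.34. Gatad2b, with a transcript of 7438 bases, kept 0.40 with the length trend removed.

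At E12.5 all 108 further genes were tested, with a median log2 fold change of -0.0037, 53 higher, 17 higher without overlap and 12 lower without overlap, and 0 were called. Over all genes tested, 16.9% were higher and 15.2% lower without overlap. Kat2b, an H3K9 acetyltransferase, was at 17.2 and 13.2 CPM against 19.1 and 22.8 CPM (0.46, SE 0.16), and Ezh1, the paralogue of Ezh2, at 10.3 and 8.99 CPM against 11.1 and 15.2 CPM (0.45, SE 0.18). Bmi1, of Polycomb repressive complex 1, was at 0.25, Bcl11b, a BAF subunit and cortical transcription factor, at 0.22, and Jarid2, which guides Polycomb repressive complex 2, at -0.20.

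Sex-linked histone demethylases set Mboat7+/- replicate 1, the cortex with Xist, apart at E11.5. Kdm5d, on the Y chromosome, was at 0 CPM in Mboat7+/- replicate 1 and at 48.0, 49.9 and 49.2 CPM in the other cortices, and Uty at 0 against 15.6, 14.7 and 18.5 CPM. Their X-linked partners were highest in the same cortex, Kdm5c at 217 CPM against 163, 175 and 183 CPM, and Kdm6a at 40.9 CPM against 25.5, 38.7 and 34.0 CPM. Without that cortex the median log2 fold change of the 44 genes was 0.14, and 33 were higher. At E12.5 Kdm5d was at 36.8 and 31.2 CPM against 31.8 and 38.8 CPM, and Kdm5c was lower without overlap, at 141 and 137 CPM against 124 and 123 CPM.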

How the data were processed

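The authors deposited raw read counts per gene, without normalization, in 1 table for each stage. The submitters' processing notes name HISAT2 and Subread and the builds mm10 and GRCm39, and their settings are not given in the sources used here. At E11.5 there are 23420 genes, named by symbol, and at E12.5 there are 78298, named by Ensembl identifier. Older symbols were mapped through gene name tables. Mll2 was taken as Kmt2d, since Kmt2b is listed there as Wbp7, and Srcap was not analysed at E11.5.

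The counts of a stage were fitted by themselves in edgeR 4.0.16 under R 4.3.3 (TMM normalization, filterByExpr with a minimum count of 10, quasi-likelihood test in its current form, Benjamini-Hochberg adjustment over all genes tested). A prior count of 0.125 was used for fold changes. Standard errors are those of the fit, which moderates the variability of each gene toward a trend over all genes. They are therefore not a measure of the embryo spread of a single gene. No overlap means that both cortices of a genotype lie beyond both of the other in CPM. Length and GC content are those of the longest coding transcript of each gene in GENCODE (GRCm38). Trends were splines with 5 degrees of freedom, fitted per library to log2 CPM relative to each gene's mean over the cortices of the stage. For this, 0.5 was added to each count, and the fitted trends were entered as offsets. The slopes and deviations by length used log2(CPM + 0.5). The fits were tested on simulated data. The replicate number, given by the labels as a batch, was taken to pair the cortices. Across genes, deviations from the genotype mean correlated between cortices of 1 number at 0.083 (E11.5) and -0.20 (E12.5).

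The members and lists were chosen with earlier results of these data known. Genes with values in each cortex are the 10 with the largest absolute log2 fold change without overlap per stage, the exchanged BAF subunits, the 5 largest further genes per stage, the sex-linked demethylases, and others added for their role after their values were seen. Alternatives were other normalizations (RLE, upper quartile), filters, DESeq2 1.42.0, the block, the trends, the earlier form of the quasi-likelihood test and leaving out each cortex. Standard errors and CPM cover 2 embryos per genotype. Counting error was not estimated by itself. The narrowest separations without overlap, and values of genes with few counts such as Dpf3, may lie within it. Tables and figures were made with Python 3.11.15, numpy 2.4.6, pandas 2.3.3, scipy 1.17.1 and matplotlib 3.10.9.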

Additional observations from a re-analysis of the deposited data

Results flagged for a closer look

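Some genes had both cortices labelled Mboat7-/- on one side of both Mboat7+/- cortices at E11.5 and on the other side at E12.5. Such genes were not counted over all genes tested, so no background share stands beside the counts here. Among the 44 genes there were 2. Chd4 had a log2FC of 0.12 at E11.5 and -0.090 at E12.5, and Smarca4 of 0.086 and -0.098. With the length trend removed neither changed sides: Chd4 was at -0.041 and -0.18, lower without overlap at both stages, and Smarca4 at -0.063, with overlap, and -0.18. Bptf, Zfp462 and Crebbp did change sides once the trend was removed. They were then higher without overlap at E11.5 and lower without overlap at E12.5. Among the further chromatin genes, 7 were on opposite sides before the trend was removed. Dnmt1, the maintenance DNA methyltransferase, was at 0.21 and -0.089, and Dnmt3a, a de novo DNA methyltransferase, at 0.19 and -0.095. Jarid2 was at 0.16 and -0.20, and Nsd2 at 0.11 and -0.072. In the other direction, Bmi1 was at -0.052 and 0.25, Pcgf2 at -0.22 and 0.10, and Men1 at -0.089 and 0.046. With the length trend removed, Nsd2 was lower without overlap at both stages, and at E11.5 Jarid2 and Dnmt3a overlapped. The difference between the stages was not tested, and each stage had its own provider. Groups of 2 are too small for a check for outlying cortices.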

How the results depend on the processing

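Other normalizations, filters, DESeq2 and the earlier form of the test moved no count or median of the 44 genes beyond the limits set, except that DESeq2 called 4 of them at E11.5. For a median the limit was the standard deviation of its values with each cortex left out. For the 44 genes at E12.5 that was 0.054, more than the median itself, 0.041. A count had to stay within a set ratio, which 22 members higher at E11.5 with the length trend removed, against 32, still met. Upper-quartile scaling put the E11.5 median of the further genes at 0.049. With the replicate block 9 members were called at E11.5, and 0 were at the later stage. The crossed pairing at E12.5, added after the data were seen as was the earlier form of the test, called 1 member and 158 genes in all.

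With the length trend removed, the E11.5 medians were 0.00029 (members, 8 higher without overlap) and -0.016 (further genes). At E12.5 they were -0.031 and -0.049, with 14 members higher and 11 lower without overlap. With length and GC content removed, the E11.5 medians were -0.0040 and -0.012, with 21 members higher, 10 higher and 3 lower without overlap, and the E12.5 medians -0.028 and -0.047. With the block and the length trend removed together, the E11.5 medians were -0.00076 and -0.016, and the E12.5 medians -0.033 and -0.049, with 14 members higher.

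Leaving out each cortex gave 0 to 10 members called at E11.5, medians from 0.13 to 0.17 (members) and from 0.072 to 0.090 (further genes), and 7 to 12 members lower without overlap. At E12.5 it gave medians from -0.020 to 0.094 and from -0.015 to 0.045, 13 to 31 members higher, 5 to 24 higher without overlap and 8 to 14 lower, and by construction 3 cortices overlap less often than 4. Overlap counts were not recomputed with DESeq2, the block or the earlier form of the test, which leave the CPM as they are. Chd5 and Dpf3 had the widest standard errors of the 44 at both stages.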
